A study of Mus musculus with 12 samples.

Results

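The genes described here are the core regulators of the G1 phase of the cell cycle: the D cyclins *Ccnd1*, *Ccnd2* and *Ccnd3*, the kinases *Cdk4* and *Cdk6*, the CIP/KIP inhibitors *Cdkn1a*, *Cdkn1b* and *Cdkn1c*, and the INK4 inhibitors *Cdkn2a* and *Cdkn2c*. They were chosen by name for their role and not by a measured value, though earlier results of these data were known. All 10 were found among the 38924 genes counted, and all 10 passed the filter on low counts, which kept 16645 genes. RNA had been sequenced from 12 pancreatic neuroendocrine tumors (PanNETs) of C57Bl6 *RIP1Tag2* mice. In these mice the rat insulin promoter drives the SV40 T antigens in beta cells, and every group carried this transgene. Per the sample labels the mice were 15.5 weeks old at the start and were treated for 4 days. The groups were 4 saline-treated control tumors, 4 tumors treated with sunitinib, which blocks the receptors of VEGF and PDGF, and 4 tumors treated with rapamycin, an mTOR inhibitor, together with sunitinib (R+S).

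In G1 a D cyclin joins CDK4 or CDK6, and the complex phosphorylates the retinoblastoma protein, which frees E2F factors to switch on genes of DNA replication. INK4 proteins bind CDK4 and CDK6 and keep the cyclin away, whereas CIP/KIP proteins bind cyclin and kinase complexes and chiefly restrain CDK2. Beta cells are known for their reliance on CDK4 and cyclin D2, and for being held back by p27 (*Cdkn1b*), p18 (*Cdkn2c*) and p57 (*Cdkn1c*). The large T antigen itself binds the retinoblastoma protein and p53 in these tumors, downstream of the D cyclins.

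Binding of a D cyclin to the retinoblastoma protein involves a short motif, leucine, any residue, cysteine, any residue, glutamate, close to the first residue of the cyclin. Its codons are in capitals in the first 60 coding bases below, taken from the GENCODE M21 transcripts on GRCm38, and they show where the D cyclins are alike and where they part.
*Ccnd1*: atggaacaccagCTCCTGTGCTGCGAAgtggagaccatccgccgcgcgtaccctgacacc
*Ccnd2*: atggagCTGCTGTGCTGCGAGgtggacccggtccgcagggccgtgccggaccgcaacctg
*Ccnd3*: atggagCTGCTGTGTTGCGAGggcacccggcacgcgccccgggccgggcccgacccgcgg
The motif spans coding bases 13 to 27 in *Ccnd1* and 7 to 21 in *Ccnd2* and *Ccnd3*. The genes lie on chromosome 7 (144929931 to 144939925, minus strand), chromosome 6 (127125162 to 127152193, minus strand) and chromosome 17 (47505051 to 47599691, plus strand), in that order.

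Reads on genes summed to 31872342 to 44215054 in each tumor. Levels are given below as normalized CPM (read counts scaled to each tumor's TMM-adjusted library size), and tests are edgeR's quasi-likelihood F-test over all 16645 genes, with an adjusted p under 0.05 as the threshold. Sunitinib tumor 6 stood apart: its log2 CPM correlated with the other sunitinib tumors at 0.872 to 0.895, and its summed beta-cell markers were 4512 CPM against 33850 to 79830 in the other 3. The same 9 beta-cell markers summed to 39300 to 63620 CPM in control and 44300 to 69810 in R+S tumors. *Chga*, among these 9, was at 2849 CPM in sunitinib tumor 6, within the 2581 to 3325 of control tumors. The low sum of tumor 6 therefore does not hold for every marker. Transcripts of 15 acinar markers, from the exocrine pancreas, summed to 49.0 to 138 CPM in control tumors, 10900 to 39410 in sunitinib tumors and 2941 to 16590 in R+S tumors. Acinar content and treatment therefore cannot be told apart when treated tumors are set against control tumors. The titles carry a prefix shared by the 4 control tumors, by 3 of the 4 sunitinib tumors and by 2 of the 4 R+S tumors, and each prefix is found in a single group. Whether a prefix stands for an animal is not given, so the p-values measure the spread between these tumors, and prefix and treatment cannot be told apart.

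Of the 10 genes, *Ccnd1* alone was called under sunitinib against control, and it fell. Of all tested genes 4.48% were called there, 2.55% lower and 1.93% higher. Under R+S against control *Ccnd1* and *Cdkn2a* fell, where 4.16% of all genes were called, 2.61% lower and 1.55% higher. R+S against sunitinib gave *Cdkn2a*, again lower, where 7.21% of all genes were called, 4.58% lower and 2.63% higher. In edgeR's test 0 of the 10 genes were called higher in any of the 3 comparisons, and 0 by DESeq2. At an unadjusted p under 0.05, 2, 4 and 5 of the 10 genes passed in these comparisons, in either direction, against 19.5%, 20.1% and 30.4% of all tested genes. The groups did not overlap for 1, 4 and 3 of the 10 genes, against 10.9%, 23.5% and 18.6% of all tested genes. The median log2 fold change of the 10 genes was 0.16, -0.31 and -0.33, against 0.03, 0.01 and -0.025 over all genes.

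**Figure D1:**
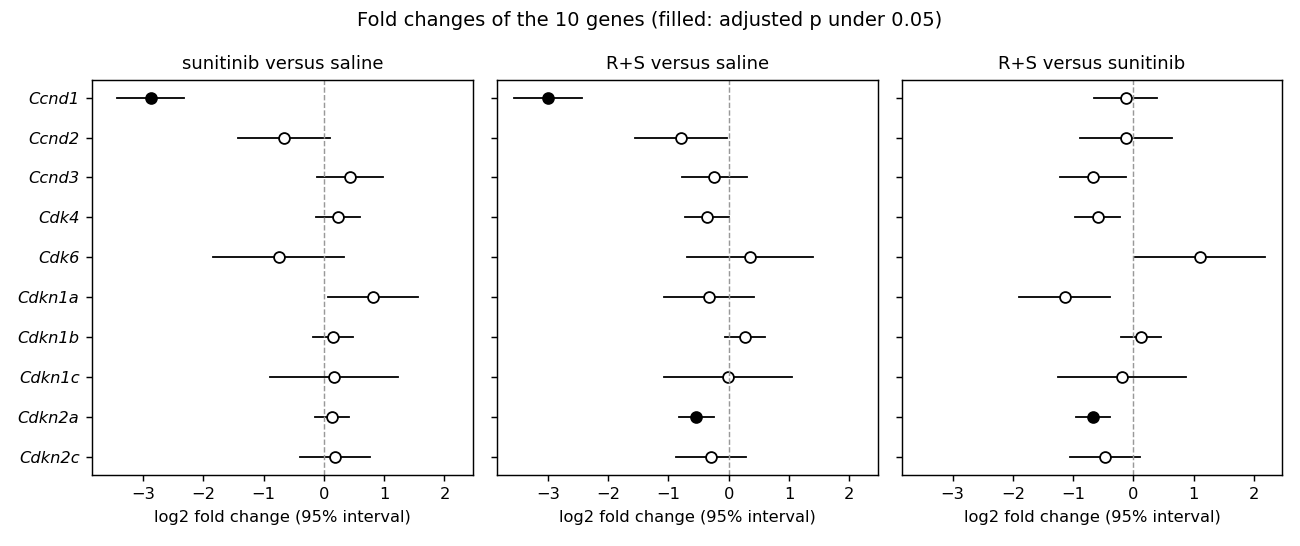
Log2 fold changes (points) with 95% intervals (lines) of the 10 genes in 3 comparisons from 1 edgeR fit of 12 tumors. Filled points have an adjusted p under 0.05, which are *Ccnd1* in both comparisons with control and *Cdkn2a* in both comparisons of R+S.

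Cyclin D1, encoded by *Ccnd1*, is the D cyclin that growth factor signals raise in many cell types. Its transcript was at 22.7, 19.95, 35.7 and 24.2 CPM in control tumors 1, 2, 3 and 4. In sunitinib tumors 5, 6, 8 and 12 it was at 4.13, 3.51, 3.75 and 2.57 CPM. In R+S tumors 4, 5, 7 and 10 it was at 2.27, 3.54, 3.86 and 3.12 CPM. Every treated tumor lay far below every control tumor, and the treated groups overlapped each other. On the log2 scale the difference from control was -2.88 under sunitinib (7.34-fold lower, standard error 0.25, adjusted p = 4.75e-05) and -3.00 under R+S (8.01-fold lower, standard error 0.26, adjusted p = 0.000129). An exact permutation test (two-sided) gave p = 0.0286 for each, the smallest that the 70 arrangements of 4 against 4 allow. Both calls held with each of the 12 tumors left out in turn. When the mean acinar level entered the fit, these values were -2.46 and -2.65 and neither was called (adjusted p = 0.789 and 0.725, where every other alternative gave at most 0.00176). Of the variance of that acinar level, 94.0% lay between sunitinib and control tumors and 91.1% between R+S and control tumors.

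*Ccnd1* was not called between R+S and sunitinib tumors. The log2 fold change between R+S and sunitinib tumors was -0.13, with a 95% interval from -0.65 to 0.40 (adjusted p = 0.746). *Ccnd1* overlaps the exons of *LTO1* on the opposite strand over 1100 bases. *LTO1* itself was at 20.9 to 32.5 CPM in all tumors and had a log2 fold change of 0.24 under sunitinib (adjusted p = 0.352).

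**Figure D2:**
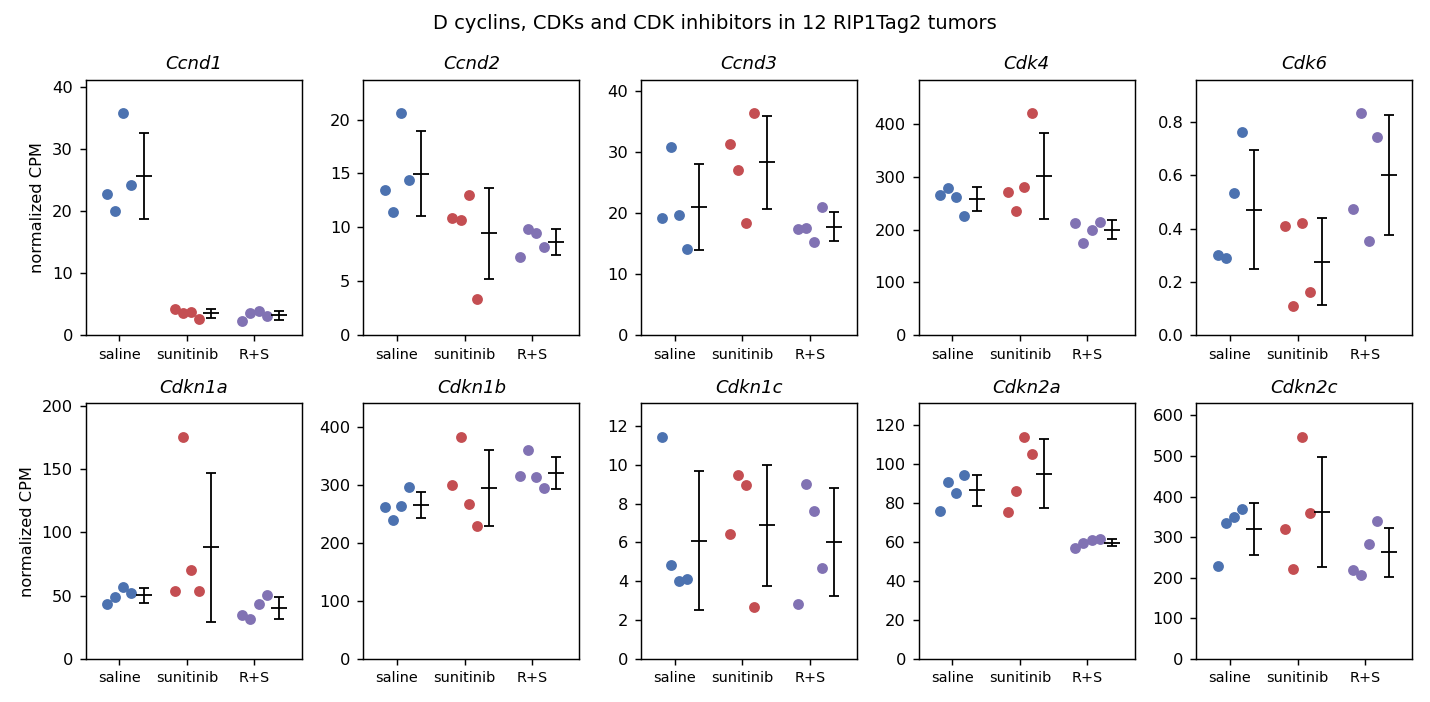
Normalized CPM (linear axes from 0) of each of the 10 genes in 4 saline-treated, 4 sunitinib-treated and 4 R+S-treated tumors. Points are tumors in order of their number, with the mean and SD (n = 4) beside them. *Ccnd1* was at 19.95 to 35.7 in control tumors and at 2.27 to 4.13 in the 8 treated tumors, and *Cdkn2a* was at 57.2 to 61.4 in R+S tumors, below all others.

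Cyclin D2, encoded by *Ccnd2*, is the D cyclin best known for beta-cell growth after birth. Its transcript was at 13.5, 11.4, 20.6 and 14.4 CPM in control tumors. It was at 10.9, 10.7, 13.0 and 3.30 CPM in sunitinib tumors 5, 6, 8 and 12, and at 7.21, 9.82, 9.49 and 8.17 CPM in R+S tumors. R+S tumors all lay below the control tumors, and sunitinib tumor 12 was the lowest of the series. Neither difference passed the test, with log2 fold changes of -0.66 (standard error 0.35, adjusted p = 0.318) under sunitinib and -0.79 (standard error 0.35, adjusted p = 0.232) under R+S. The R+S value was called in a fit of only those 8 tumors (adjusted p = 0.0291) and without sunitinib tumor 12 (0.0406, with 0.0406 to 0.494 over the 12 tumors left out in turn). *Ccnd3*, the third D cyclin, was at 19.1, 30.7, 19.7 and 14.2 CPM in control tumors. It was at 31.3, 27.1, 18.3 and 36.3 CPM in sunitinib tumors and at 17.4, 17.5, 15.2 and 20.9 CPM in R+S tumors. Its groups overlapped in every comparison, and the largest log2 fold change was -0.67 between R+S and sunitinib tumors (adjusted p = 0.102, standard error 0.25).

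The make-up of the D cyclin transcripts therefore differed between control and treated tumors. Per kilobase of annotated exon, the D cyclins together were at 9.42 ± 1.76 CPM in control tumors, 4.97 ± 0.55 in sunitinib tumors and 3.62 ± 0.30 in R+S tumors (SD, n = 4 each). *Ccnd1* made up 57.4% ± 7.21 of this sum in control tumors, 15.04% ± 3.23 in sunitinib tumors and 18.7% ± 3.51 in R+S tumors. *Ccnd3* made up 25.8% ± 9.45, 64.3% ± 13.7 and 55.9% ± 6.24. The lowest *Ccnd1* share in a control tumor was 47.3% and the highest in a treated tumor 23.0%. *Ccnd2* made up 16.8% ± 2.26, 20.7% ± 10.5 and 25.5% ± 2.96, so that by mean share it was the smallest of the D cyclins in control tumors and *Ccnd1* the smallest in both treated groups. Since *Ccnd3* has 21 annotated transcripts, its length is uncertain. With the longest transcript as length, *Ccnd1* made up 46.7% ± 8.23, 9.79% ± 2.61 and 12.6% ± 2.74, and *Ccnd3* 37.1% ± 11.2, 74.1% ± 11.4 and 67.3% ± 5.53.

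**Figure D3:**
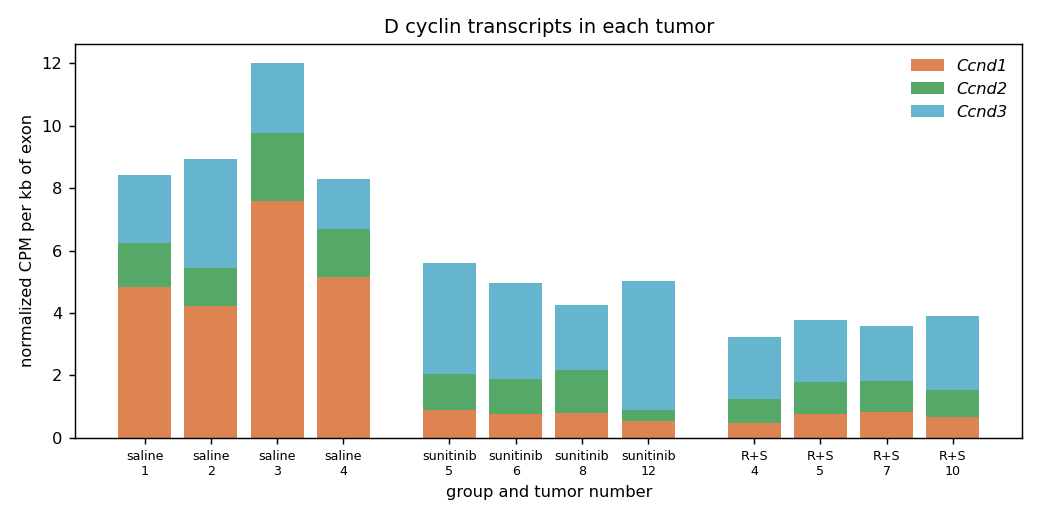
Stacked bars of normalized CPM per kilobase of exon for *Ccnd1*, *Ccnd2* and *Ccnd3* in each of the 12 tumors (linear axis from 0), labelled by group and tumor number. The *Ccnd1* part shrinks from a mean share of 57.4% in control tumors to 15.04% under sunitinib and 18.7% under R+S.

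Endothelial markers were low in the same tumors as *Ccnd1*. Summed over 9 markers of blood vessel lining, they were at 463.8 to 637.1 CPM in control tumors, 46.7 to 82.7 in sunitinib tumors and 99.7 to 128.2 in R+S tumors, and none was at 0 in all tumors. All 9 markers had a negative log2 fold change in each treated group against control, and 8 were called lower in each. Of all tested genes 2.55% were called lower under sunitinib and 2.61% under R+S. *Kdr*, the main VEGF receptor, had log2 fold changes of -4.83 (adjusted p = 1.10e-05) under sunitinib and -3.65 (adjusted p = 0.000126) under R+S. *Ccnd1* per 100 CPM of these markers was 4.79 ± 0.65 CPM in control tumors, 5.67 ± 1.79 in sunitinib tumors and 2.96 ± 0.85 in R+S tumors (SD, n = 4 each). In R+S against sunitinib tumors, 5 of the 9 endothelial markers were called higher, where 2.63% of all genes were. The median log2 fold change over the 9 was 0.91, while that of *Ccnd1* was -0.13. In bulk RNA, fewer cells of a type and less RNA per cell cannot be told apart, and the part of endothelial cells in the *Ccnd1* values was not tested. Red cell transcripts moved the same way, at 68.7 to 374.7 CPM in control tumors, 1.66 to 4.81 in sunitinib tumors and 2.96 to 22.2 in R+S tumors.

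**Figure D4:**
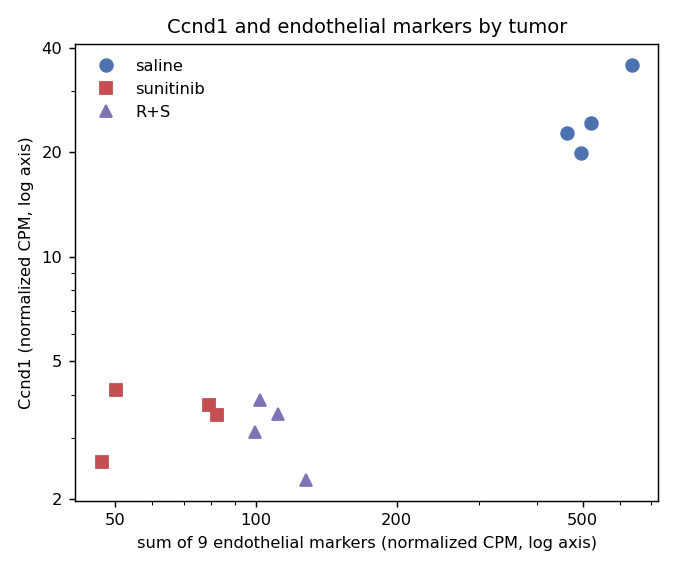
*Ccnd1* (normalized CPM, log axis) against the sum of 9 endothelial markers (normalized CPM, log axis) in 12 tumors, 1 point per tumor. Control tumors lie at 463.8 to 637.1 CPM of markers and 19.95 to 35.7 CPM of *Ccnd1*, and the treated tumors form a separate cloud at 46.7 to 128.2 and 2.27 to 4.13.

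The 5 genes whose log2 CPM followed *Ccnd1* most closely over the 12 tumors were *Nrp1* (Pearson's r = 0.977), *Plpp3* (0.974), *Notch4* (0.965), *Cd34* (0.956) and *Ehd4* (0.954). *Nrp1* encodes a co-receptor for VEGF, *Notch4* a receptor of the endothelium and *Cd34* a surface protein of endothelial and blood-forming cells. *Nrp1* was at 65.4 ± 8.57 CPM in control, 14.0 ± 3.54 in sunitinib and 15.9 ± 3.42 in R+S tumors (SD, n = 4 each), and *Plpp3*, a lipid phosphatase, at 55.2 ± 7.75, 8.32 ± 3.33 and 7.94 ± 1.09. These r mostly reflect the gap between control and treated tumors. Within groups, with group means subtracted, they were 0.71, 0.59, 0.13, 0.48 and 0.29 in the same order. Tumors of a group may share more than their treatment, so these r are a description.

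CDK4, the kinase partner of the D cyclins in beta cells, was among the more abundant transcripts. *Cdk4* was at 265.2, 279.9, 262.0 and 226.0 CPM in control tumors and at 271.3, 236.0, 282.0 and 421.5 CPM in sunitinib tumors 5, 6, 8 and 12. In R+S tumors it was at 213.7, 175.1, 198.7 and 213.9 CPM. All 4 R+S tumors lay below the other 8, and sunitinib tumor 12 was the highest. Neither difference passed the threshold in edgeR's test. Log2 fold changes were -0.37 against control (standard error 0.17, adjusted p = 0.249) and -0.60 against sunitinib (standard error 0.17, adjusted p = 0.0533), and the exact permutation p was 0.0286 for both. The difference from sunitinib was called by DESeq2 (adjusted p = 0.0109), with upper-quartile or library-size scaling (0.0499 and 0.0477), with at least 10 counts asked of every tumor (0.0453), and without sunitinib tumor 5 (0.0363) or tumor 6 (0.0292). It was not called in the other alternatives, where the adjusted p reached 0.1477. *Cdk4* shares 17.0% of its 50-base words with *Tspan31*, which overlaps it on the opposite strand over 641 bases and had a log2 fold change of -0.56 (adjusted p = 0.128) in the same comparison.

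The 250 bases before the start of *Cdk4* are shown (chr10:127063285-127063534, plus strand, RefSeq, GRCm38.p6), with each CACGTG, the core of an E-box, in capitals.
*Cdk4* promoter: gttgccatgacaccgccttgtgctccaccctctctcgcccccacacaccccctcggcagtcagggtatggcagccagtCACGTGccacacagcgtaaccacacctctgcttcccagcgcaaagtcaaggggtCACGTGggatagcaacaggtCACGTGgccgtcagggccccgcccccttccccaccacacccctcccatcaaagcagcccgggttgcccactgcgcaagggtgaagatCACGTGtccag
E-boxes of this form are bound by MYC and related factors. The window holds 4 of them, read on both strands of a sequence that is its own reverse complement. Of 32851 promoter windows of the same length, 6.02% hold at least 1 and 7 windows (0.0213%) hold 4 or more. The cut of 4 is the count in the *Cdk4* window, which is itself among the 7, and several motifs were searched. The share is therefore a description and not a test. Each CACGTG also contains ACGTG, the core of a hypoxia response element, which with GCGTG occurs in 38.6% of windows. A match is a description of the letters and not of a bound factor. Windows for 7 of the 10 genes were matched, and *Ccnd1*, *Ccnd2* and *Cdkn1c* were not matched.

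CDK6, the other kinase that pairs with D cyclins, was hardly transcribed. *Cdk6* had 11 to 27 reads per control tumor, 4 to 16 per sunitinib tumor and 13 to 33 per R+S tumor, or 0.11 to 0.83 CPM. Per kilobase of exon the *Cdk4* level exceeded that of *Cdk6* by a mean ratio of 2838 in control tumors, with single tumors from 1279 to 4141. At these counts the *Cdk6* difference between R+S and sunitinib tumors (log2 fold change 1.11, standard error 0.49, adjusted p = 0.156) was not distinguishable from the spread between tumors. Its groups overlapped in all 3 comparisons.

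p21, the product of *Cdkn1a*, is the inhibitor that p53 and stress signals switch on. *Cdkn1a* was at 43.2, 48.8, 56.9 and 51.8 CPM in control tumors. It was at 53.5, 175.5, 70.1 and 53.4 CPM in sunitinib tumors 5, 6, 8 and 12, and at 34.5, 31.4, 43.5 and 50.5 CPM in R+S tumors. Sunitinib tumor 6 alone carried a high value, and R+S tumors all lay below the sunitinib tumors. On the log2 scale sunitinib tumors differed from control by 0.81 (adjusted p = 0.219, standard error 0.345), and without tumor 6 it was 0.23 (adjusted p = 0.491). R+S against sunitinib gave -1.14 (standard error 0.35, adjusted p = 0.0636) and without tumor 6 -0.56 (adjusted p = 0.0623). The latter comparison was called by DESeq2 (adjusted p = 0.0130) and without sunitinib tumor 5 (0.0283), and in the other alternatives the adjusted p ranged up to 0.163. R+S against control gave -0.33 (adjusted p = 0.631).

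p27, encoded by *Cdkn1b*, was the most abundant CIP/KIP transcript. *Cdkn1b* was at 262.6, 240.5, 263.9 and 296.2 CPM in control tumors and at 300.3, 383.8, 267.3 and 229.5 CPM in sunitinib tumors. In R+S tumors it was at 315.2, 361.0, 314.7 and 295.6 CPM. The groups overlapped, and no comparison passed the test. The largest log2 fold change was 0.28 between R+S and control tumors, with a 95% interval from -0.06 to 0.61 (adjusted p = 0.334). *Cdkn1b* and *Cdk4* ran opposite to each other within the groups, a pattern picked after the values were seen. Control tumor 2, sunitinib tumor 12 and R+S tumor 10 had the highest *Cdk4* and the lowest *Cdkn1b* of their groups. Control tumor 4 and R+S tumor 5 had the lowest *Cdk4* and the highest *Cdkn1b*. So did sunitinib tumor 6, the tumor with a low sum of beta-cell markers. The tumors also differed in beta-cell and acinar markers, and the part of these in the pattern was not tested.

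p57, the product of the imprinted gene *Cdkn1c*, was a minor transcript. *Cdkn1c* was at 11.4, 4.81, 4.01 and 4.12 CPM in control tumors. It was at 6.40, 9.45, 8.97 and 2.66 CPM in sunitinib tumors and at 2.83, 8.99, 7.61 and 4.70 CPM in R+S tumors. All 3 groups overlapped, and the upper end of the control range came from control tumor 1 alone. The log2 fold change under sunitinib was 0.17, with a 95% interval from -0.89 to 1.24 (adjusted p = 0.871). It turned to -0.0189 without sunitinib tumor 6 and rose to as much as 0.67 with another tumor left out. Under R+S against control it was -0.02 (95% interval -1.08 to 1.05, adjusted p = 0.991), and -0.27 to 0.48 with a tumor left out. Of its transcripts' 50-base words, 24.9% are shared with *Gm44732*, which overlaps it on the opposite strand.

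*Cdkn2a* was the inhibitor whose transcript was lower in R+S tumors than in both other groups. It encodes p16Ink4a, which binds CDK4 and CDK6, and p19Arf, which stabilizes p53, from separate first exons. *Cdkn2a* was at 76.2, 90.8, 85.4 and 94.5 CPM in control tumors 1, 2, 3 and 4. It was at 75.6, 86.1, 114.2 and 105.3 CPM in sunitinib tumors 5, 6, 8 and 12. In R+S tumors it was at 57.2, 59.4, 60.9 and 61.4 CPM. These 4 R+S values lay close together and below every tumor of the other groups, which overlapped each other. On the log2 scale the difference was -0.54 against control (1.45-fold lower, standard error 0.13, adjusted p = 0.0427) and -0.67 against sunitinib (1.60-fold lower, standard error 0.13, adjusted p = 0.0258), each with an exact permutation p = 0.0286. Under sunitinib alone it was 0.14 (95% interval -0.15 to 0.42, adjusted p = 0.597).

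Both calls of *Cdkn2a* sat near the threshold. Against control the adjusted p rose to 0.106, 0.118 and 0.114 without control tumors 2, 3 and 4, and to 0.1235, 0.131, 0.106 and 0.0723 without R+S tumors 4, 5, 7 and 10. Against sunitinib it rose to 0.0709, 0.0941 and 0.0686 without R+S tumors 4, 5 and 7. The log2 fold change itself stayed between -0.59 and -0.49 against control and between -0.78 and -0.57 against sunitinib when a tumor was left out. Without sunitinib tumor 6 both were called (adjusted p = 0.0256 and 0.0241). DESeq2 gave adjusted p = 0.00516 and 0.000229. Against control the call was lost without a filter on low counts (0.0739), with at least 10 counts asked of every tumor (0.0502), and with the mean acinar level in the fit, where the log2 fold change was -0.11 (adjusted p = 1). Against sunitinib it was lost in a fit of just the 8 tumors (0.0994), and with the acinar level it was -0.74 and called (0.04255). Summed macrophage markers were also lower in R+S tumors (206.6 to 295.1 CPM) than in control tumors (323.6 to 471.7 CPM). Sunitinib tumors 5, 8 and 12, at 328.2, 478.2 and 486.7 CPM, lay above every R+S tumor, and sunitinib tumor 6 lay below them at 173.6 CPM. Of the 6 macrophage markers, 5 had a negative log2 fold change in R+S against control tumors and 1 was called lower. Against sunitinib tumors 4 were negative and 0 were called. Of all tested genes 2.61% and 4.58% were called lower in these comparisons. The part of macrophages in the *Cdkn2a* values was not tested.

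The counts of *Cdkn2a* pool both proteins' transcripts. The gene spans chromosome 4 from 89274471 to 89294653 on the minus strand, and p19Arf starts upstream. Both promoters are shown without the 50 bases next to the start, so that they can be compared: chr4:89294670-89294869 for p19Arf and chr4:89282243-89282442 for p16Ink4a (minus strand, RefSeq, GRCm38.p6). Capitals mark the E2F motif.
p19Arf promoter: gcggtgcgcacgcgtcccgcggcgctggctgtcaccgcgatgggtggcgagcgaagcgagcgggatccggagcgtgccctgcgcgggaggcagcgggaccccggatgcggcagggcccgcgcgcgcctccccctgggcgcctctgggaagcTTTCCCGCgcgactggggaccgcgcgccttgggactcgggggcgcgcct
p16Ink4a promoter: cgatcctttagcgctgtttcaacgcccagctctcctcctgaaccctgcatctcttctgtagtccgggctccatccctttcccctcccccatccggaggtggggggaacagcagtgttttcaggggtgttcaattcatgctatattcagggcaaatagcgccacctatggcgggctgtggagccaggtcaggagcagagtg
The p19Arf promoter holds 1 match, 91 bases before the start, and the p16Ink4a promoter none. Motifs searched on both strands were TTTCCCGC, TTTGGCGC, TTTCGCGC and TTTGCCGC, which 1.86% of all promoter windows hold. Of the 11 windows matched to the 10 genes, 1 held it. A missing match says only that these letters are not in the window.

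p18, encoded by *Cdkn2c*, had the highest transcript level of the 10 per kilobase of exon in each group. *Cdkn2c* was at 227.6, 334.1, 349.7 and 369.1 CPM in control tumors. It was at 320.8, 220.6, 547.4 and 358.9 CPM in sunitinib tumors 5, 6, 8 and 12, and at 219.4, 206.6, 284.1 and 338.8 CPM in R+S tumors. The groups overlapped throughout. Its log2 fold changes were 0.18 (adjusted p = 0.744, -0.0939 without sunitinib tumor 8), -0.29 (adjusted p = 0.579) and -0.46 (standard error 0.27, adjusted p = 0.253) for sunitinib against control, R+S against control and R+S against sunitinib.

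Per kilobase of exon, *Cdk4* and the inhibitors other than *Cdkn1c* stood above the D cyclins in control tumors. The order of mean levels was *Cdkn2c* (119 CPM per kilobase), *Cdk4* (79.5), *Cdkn2a* (74.0), *Cdkn1b* (58.4), *Cdkn1a* (14.1), *Ccnd1* (5.45), *Cdkn1c* (2.99), *Ccnd3* (2.38), *Ccnd2* (1.59) and *Cdk6* (0.0337). Neighbours overlapped between tumors except at the steps from *Cdkn1b* to *Cdkn1a*, from *Cdkn1a* to *Ccnd1* and from *Ccnd2* to *Cdk6*. *Ccnd1* stood at place 6 of 10 in control tumors and at place 9 in both treated groups, also with the longest transcript as length. *Cdkn1b* exceeded the summed D cyclins 6.36 ± 1.29 times in control tumors, 13.1 ± 2.99 times in sunitinib tumors and 19.6 ± 2.18 times in R+S tumors (ratio per kilobase, SD, n = 4 each). *Cdkn1b* itself was called in no comparison. The ratio also depends on the lengths used and is smaller with the longest transcript. In control tumors *Cdkn1b* then stays at 58.4, with *Ccnd1*, *Ccnd2* and *Ccnd3* at 6.86, 2.37 and 5.42 CPM per kilobase. With the longest transcript as length *Cdk4* came before *Cdkn2c* under sunitinib and before *Cdkn1b* under R+S, and *Ccnd3* came before *Cdkn1c* in all 3 groups (5.42 and 3.21 CPM per kilobase in control tumors).

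The genes that act next to these 10 were counted in lists. For every list, the shares of all tested genes called were 4.48%, 4.16% and 7.21%. These are for sunitinib against control, R+S against control and R+S against sunitinib. At an unadjusted p under 0.05 the shares were 19.5%, 20.1% and 30.4%, and DESeq2 called 1477, 1688 and 3045 genes. Of 18 genes of the retinoblastoma and E2F axis, among them *Rb1*, *E2f1* and *Tfdp1*, 0 were called in edgeR's test under sunitinib or under R+S against control (2 and 1 at an unadjusted p under 0.05, and 0 and 1 by DESeq2). Their median log2 fold change was -0.05 under sunitinib and -0.08 under R+S. *Rb1* was at 111.9 ± 12.7, 93.3 ± 22.5 and 127.4 ± 4.79 CPM in control, sunitinib and R+S tumors. R+S against sunitinib gave a rise of *Lin52* (log2 fold change 0.46, adjusted p = 0.0301) and a fall of *Lin37* (-0.62, adjusted p = 0.0490), both subunits of the DREAM complex that represses cell cycle genes in quiescence. *Lin37* was called with just 1 of the 12 tumors left out, sunitinib tumor 5, and had adjusted p = 0.0521 to 0.132 without each of the others. *Lin52* was not called without control tumor 3 or without any 1 of the R+S tumors (0.0518 to 0.104). With the mean acinar level in the fit neither was called.

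Some cyclins and kinases of the later cell cycle fell in R+S tumors. Of 23 genes tested, 0 were called under sunitinib (0 at an unadjusted p under 0.05, and 0 by DESeq2). Under R+S against control 7 were called lower (median of the 23 -0.35, with 4 above 0). Between R+S and sunitinib 7 were called lower (median -0.41, with 7 above 0). *Ccnb1*, the cyclin of mitotic entry, was at 83.9 ± 17.4 CPM in control tumors, 76.2 ± 3.24 in sunitinib tumors and 36.8 ± 7.89 in R+S tumors (SD, n = 4 each). Its log2 fold change under R+S was -1.19 (standard error 0.18, adjusted p = 0.00329) against control and -1.05 (standard error 0.18, adjusted p = 0.0233) against sunitinib. *Ccna2*, the cyclin of S phase and G2, fell by 0.96 (adjusted p = 0.0106) against control, and *Cdk1*, the kinase of mitosis, by 0.92 (adjusted p = 0.0295) against sunitinib. *Cdkn3*, *Cks1b* and *Cdc25c* also fell against control, and *Cks2*, *Cdkn3* and *Cdc25c* against sunitinib.

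A list of DNA replication and mitosis genes, many of them E2F targets, also held genes that fell in R+S tumors. Of 20 tested, 0 were called under sunitinib (median 0.07, with 2 at an unadjusted p under 0.05 and 0 by DESeq2). Under R+S 6 were called lower against control (median -0.61) and 8 against sunitinib (median -0.65). The mitotic kinase *Aurka* fell by 1.22 (standard error 0.19, adjusted p = 0.00433) against control and by 0.99 (standard error 0.19, adjusted p = 0.0257) against sunitinib. *Birc5*, *Plk1*, *Tyms* and *Bub1* also fell against control, and *Birc5*, *Tyms*, *Mcm6* and *Tk1* against sunitinib. All 20 had a negative log2 fold change between R+S and sunitinib. Without R+S tumor 4, 5 or 7, or in a fit of just the 8 tumors, 0 genes of either list were called against sunitinib, where at most 3 genes were called in the whole table. Against control, between 2 and 10 of the 23 and between 3 and 9 of the 20 were called with a tumor left out. The lowest of these counts came without R+S tumors 4, 5 or 7 or control tumor 3 in both lists, and also without control tumors 2 or 4 or sunitinib tumor 8 in the list of 20. With the mean acinar level in the fit 0 genes of either list were called against control, where 0 were called in the whole table, and 4 of 23 and 2 of 20 fell against sunitinib. Without sunitinib tumor 6 the counts were 10 of 23 and 7 of 20 against control, and 7 of 23 and 8 of 20 against sunitinib.

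Regulators of D cyclin and inhibitor protein turnover were also counted, where 4.48%, 4.16% and 7.21% of all genes were called in the 3 comparisons. Of 16 tested genes, 0 were called under sunitinib or under R+S against control (2 and 4 at an unadjusted p under 0.05, and 1 and 3 by DESeq2). Of these, *Rnf123*, a ubiquitin ligase for p27, rose in R+S against sunitinib tumors (log2 fold change 0.65, adjusted p = 0.0267) and *Cops5*, a COP9 signalosome subunit, fell (-0.53, adjusted p = 0.0294). Without R+S tumor 4, 5 or 7 neither was called (0.0703 to 0.100), nor *Cops5* without R+S tumor 10 (0.0662) or control tumor 3 (0.0503), and with the mean acinar level in the fit neither was called. Of 20 p53 targets other than *Cdkn1a*, 0 were called under sunitinib or under R+S against control, with medians of -0.08 and -0.25 (5 and 4 at an unadjusted p under 0.05, and 0 and 0 by DESeq2). *Sesn1*, a sestrin that restrains mTORC1, rose between R+S and sunitinib (log2 fold change 0.65, adjusted p = 0.0277), but not without R+S tumor 4, 5 or 7 (0.0666 to 0.0971). Menin and FOXO factors are known to drive *Cdkn1b* and *Cdkn2c*, and of 11 genes of that axis 0 were called in any of the 3 comparisons (0, 2 and 3 at an unadjusted p under 0.05, and 0, 1 and 3 by DESeq2). Of the 7 tested genes that lie near *Cdkn1c* in its imprinted region, 0 were called either (2, 2 and 3 at an unadjusted p under 0.05, and 1, 1 and 2 by DESeq2).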

How the data were processed

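Total RNA of 12 mouse PanNETs had been made into stranded poly(A) libraries, and the authors deposited for each tumor raw counts of reads per Ensembl gene, without normalization. The submitters' processing notes name cutadapt 1.2.1, TopHat2 2.0.9, HTSeq 0.5.4p3 and GRCm38. The annotation release and the strand setting of the counting are not given in the sources used here, so genes that overlap on opposite strands may share reads. The 5 summary lines that close each table held 43.9% to 58.7% of its entries and were left out. Totals on genes were 31872342 to 44215054, which leaves *Cdk6* imprecise at 4 to 33 reads per tumor. No pair of tumors in a group differed by as little as sampling noise.

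Groups and tumor numbers came from the labels. After TMM scaling, edgeR 4.0.16 (limma 3.58.1, R 4.3.3) tested the counts with its robust quasi-likelihood F-test, in 1 fit of all 12 tumors and 3 comparisons. The filter asked for at least 10 counts in enough tumors and a total of 15. Benjamini-Hochberg adjustment ran over 16645 genes. Standard errors were taken from the F statistic. Exact permutation tests used log2 CPM with a prior count of 2. Levels per kilobase used the union of GENCODE M21 exons, or the longest transcript. Shared sequence is the percentage of a gene's 50-base words found in other genes' transcripts. The fit was tested on simulated counts.

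All 10 genes are named, with up to 5 list genes per list, comparison and direction by smallest p, and the 5 genes most correlated with *Ccnd1* among named genes with an average log2 CPM of at least 3. *Rb1*, *LTO1*, *Tspan31*, *Kdr* and *Chga* are named beside the results they touch. The genes, lists and tests were chosen with earlier results of these data known. The alternatives were DESeq2 1.42.0, other scalings and filters, only the 8 tumors compared, tumors of 1 title prefix summed in the treated groups, the mean log2 CPM of 15 acinar markers as a covariate, and each tumor left out in turn. List counts under alternatives and D cyclin shares with another length were added after seeing the data.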

Additional observations from a re-analysis of the deposited data

Results flagged for a closer look

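The 10 genes in 3 groups gave 30 sets of 4 tumors, of which 2 had a tumor far from the other 3. Chance alone marks about 1 in 20 such sets. *Cdkn1a* was at 175.5 normalized CPM in sunitinib tumor 6, and its gap to the next tumor was 0.864 of the range of the group. The other sunitinib tumors were at 53.4 to 70.1. This is also the tumor with 4512 CPM of summed beta-cell markers, a sum that includes 2849 CPM of *Chga*. *Cdkn1c* was at 11.4 normalized CPM (11.44 in 4 digits) in control tumor 1, with a gap of 0.892 of the range, and the other control tumors were at 4.01 to 4.81.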

How the results depend on the processing

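*Ccnd1* kept its direction against control under every alternative run, and its call under all but the acinar covariate. For the counts of the 10 genes called, the covariate gave 0 for sunitinib and 0 for R+S against control. Under R+S against control, no filter and at least 10 counts in every tumor each gave 1, and only the 8 tumors compared gave 4 (*Ccnd1*, *Ccnd2*, *Cdk4*, *Cdkn2a*). Between R+S and sunitinib, DESeq2 gave 3 (*Cdk4*, *Cdkn1a*, *Cdkn2a*), upper-quartile and library-size scaling and at least 10 counts gave 2 (*Cdk4*, *Cdkn2a*), and only the 8 tumors gave 0. With each tumor left out the counts were 1 to 1, 1 to 3 and 0 to 3 in the 3 comparisons. Over all genes, 745 were called under sunitinib, against 1477 by DESeq2, 408 with at least 10 counts, 380 with only the 8 tumors, 0 with the acinar covariate (793 at an unadjusted p under 0.05) and 440 to 902 with a tumor left out. Under R+S 693 were called, against 1688 by DESeq2, 2557 with only the 8 tumors, 0 with the covariate (714 unadjusted) and 292 to 1627 with a tumor left out. Between R+S and sunitinib 1200 were called, against 3045 by DESeq2, 501 without a filter, 3 with only the 8 tumors, 371 with the covariate and 0 to 2861 with a tumor left out (lowest without R+S tumor 5, highest without sunitinib tumor 5). Log2 fold changes that turned sign belonged to uncalled values. With the covariate they were -0.28 for *Cdkn1b* and -2.91 for *Cdkn1c* under sunitinib. Under R+S against control they were 0.31 for *Ccnd3*, 0.0695 for *Cdk4*, -0.0883 for *Cdk6*, -0.0922 for *Cdkn1b* and 0.56 for *Cdkn2c*, and between R+S and sunitinib 0.39 for *Cdkn1c*. With tumors of 1 title prefix summed, *Cdkn1c* was at -0.17 under sunitinib and *Ccnd2* at 0.17 between R+S and sunitinib. With a tumor left out, *Cdkn1c* ranged from -0.0189 to 0.67 and *Cdkn2c* from -0.0939 to 0.35 under sunitinib. Under R+S against control *Ccnd3* ranged from -0.38 to 0.0075 and *Cdkn1c* from -0.27 to 0.48. Between R+S and sunitinib *Ccnd1* ranged from -0.24 to 0.0088, *Ccnd2* from -0.40 to 0.0696 and *Cdkn1c* from -0.45 to 0.0507. The cause of these shifts was not tested. No paired analysis was run, since the labels name no pairs of tumors and each title prefix is found in a single group. Low counts limit *Cdk6*, and 4 tumors a group limit all tests.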
